A study of Mus musculus with 4 samples.

Results

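The set described here holds 10 genes whose products tune or lower signalling from the T-cell receptor (TCR) during positive selection: *Themis*, *Cbl*, *Cblb*, *Cd5*, *Cd6*, *Sla*, *Csk*, *Pag1*, *Ubash3a* and *Dgkz*. They were taken by gene symbol from the 24421 genes listed for the series, and all 10 were found. They were selected on their known role and with their measured FPKM difference between the genotypes in view, and the study itself singled out *Themis* and *Cbl* in these samples. The comparison of the genotypes is therefore given for them as a description, with no test.

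RNA was sequenced from CD69+CD4+CD8+ (CD69+DP) thymocytes sorted from the adult thymus of C57BL/6 mice at 6 weeks of age. Each of the 4 samples came from different mice. The 2 control samples were Foxa1fl/flFoxa2fl/fl CD4Cre-, so they carried the floxed alleles without the transgene, and the 2 Foxa1/2cKO samples carried the same floxed alleles with CD4Cre. The *Cd4* promoter drives the Cre, so deletion of the forkhead factors Foxa1 and Foxa2 was directed to T-lineage cells from the DP stage on. The values are FPKM, which are reads per kilobase of gene, with a scaling between samples made by the authors.

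DP thymocytes test their newly made TCR on self peptides held by MHC molecules of the thymic stroma. Cells whose TCR engages these ligands moderately are kept and mature, which is called positive selection, so proteins that set how much signal a given contact yields also set which cells are kept. The kinase Lck starts the signal by phosphorylating the TCR complex, Zap70 is then recruited, and adaptors pass the signal on to calcium, Ras and protein kinase C. Most of the genes described here act against these steps. They remove the receptor and its kinases by ubiquitination, hold Lck in its inactive form, bring phosphatases to the receptor or consume diacylglycerol. Of *Themis* the study says that it can attenuate or modulate the TCR signal. CD69 appears on the surface after a TCR signal, so the sorted cells had recently been signalled.

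The recovered reads on listed genes ran from 10396834 to 14482691 per sample. *Foxa1* and *Foxa2* stood at 0 in controls and Foxa1/2cKO alike, so they could not serve as a check of the genotype. A count of 0 allows up to 3 reads, which would be 0.0628 to 0.0871 FPKM for *Foxa1* and 0.0942 to 0.131 FPKM for *Foxa2*, counting error only. Of 8 defining genes of the sorted cells, 7 were listed, *Trac* not among them, and all 7 were present in every sample, such as *Cd4* at 342 to 446 FPKM, *Cd8a* at 475.5 to 666 FPKM, *Cd69* at 103 to 121 FPKM and *Rag1* at 363.5 to 449.5 FPKM. Foxa1/2cKO 2 stood apart. It was placed at 28.5 on the first principal component (65.2% of the variance), with the other samples between -11.0 and -7.42. Over genes, the log2 difference had an SD of 0.405 between the Foxa1/2cKO samples, against 0.198 for the controls. Values that rest on Foxa1/2cKO 2 are therefore given below for each Foxa1/2cKO sample separately.

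In the controls the levels of the 10 genes spanned from 13.6 FPKM for *Cblb* to 453 FPKM for *Cd5*. The order from high to low was *Cd5*, *Dgkz*, *Cd6*, *Sla*, *Csk*, *Themis*, *Cbl*, *Ubash3a*, *Pag1* and *Cblb*. *Cbl* and *Ubash3a* were neighbours whose control values overlapped, and the control ranges of all other neighbours were separate. FPKM are scaled by gene length, so these levels can be set side by side, although the lengths used by the authors are shorter than the longest annotated coding transcript for some genes. For *Cbl* the length behind the FPKM was 5083 bases against 11372 for that transcript, for *Cblb* 3161 against 6648, and for *Ubash3a* 2953 against 7635. The upper part of this order was among the most abundant in these cells: 97.7% to 99.3% of the 10776 genes tested had a lower control mean than *Csk*, *Sla*, *Cd6*, *Dgkz* and *Cd5*. *Cblb* sat near the middle, with 47.1% of tested genes below it. The order in Foxa1/2cKO 1 was that of the controls. In Foxa1/2cKO 2 it differed only in *Cd6* (391.5 FPKM), which stood above *Dgkz* (388 FPKM).

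**Figure D1:**
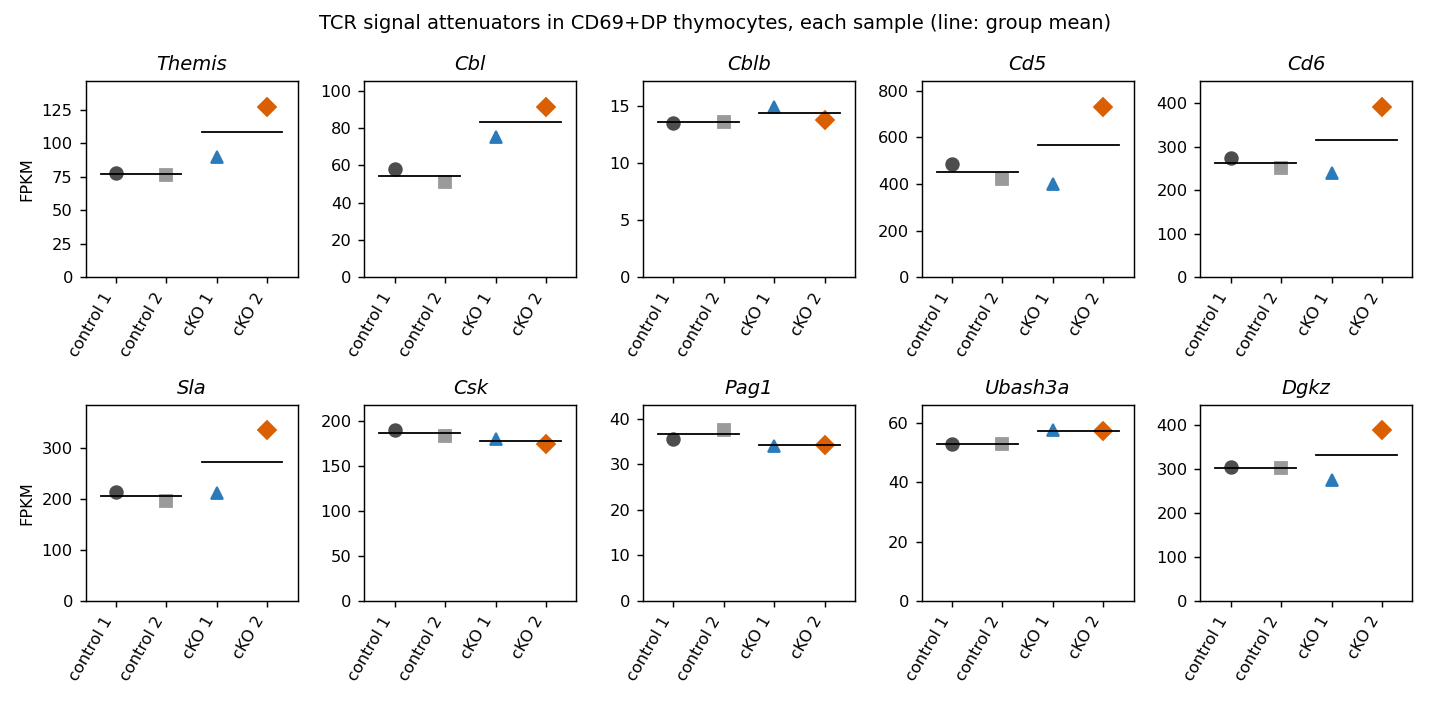
Level in FPKM (vertical axes, linear and starting at 0) of each of the 10 attenuator genes in the 2 control and 2 Foxa1/2cKO samples, each symbol being 1 sample and each line a group mean (n = 2). *Themis* and *Cbl* were higher in each Foxa1/2cKO sample than in each control, whereas *Cd5*, *Cd6*, *Sla* and *Dgkz* were high in Foxa1/2cKO 2 and not in Foxa1/2cKO 1.

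The spread between the 2 Foxa1/2cKO samples is given only as a description, since the 10 genes were chosen with results of these data known. The median absolute log2 difference between the Foxa1/2cKO samples was 0.39 for the 10 genes and 0.20 for all genes tested. *Themis*, *Cbl*, *Cblb* and *Ubash3a* were higher in each Foxa1/2cKO sample than in each control, *Csk* and *Pag1* were lower in each, and *Cd5*, *Cd6*, *Sla* and *Dgkz* overlapped. Of all genes tested, 18.9% had both Foxa1/2cKO samples above both controls and 17.8% had both below, 36.7% together. None of the 10 passed the threshold, with 0 below 0.05 in limma after Benjamini-Hochberg correction (0.00928% of all genes tested, which is 1 gene) and 1, *Cbl*, at an unadjusted p under 0.05 (4.55% of all genes tested, 2.39% higher and 2.15% lower in Foxa1/2cKO). Nothing is read from these counts, since the genes were chosen with this comparison known. The median log2 difference of the 10 genes between the genotypes was 0.17, against 0.005 over all genes tested. For Foxa1/2cKO 1 alone against the controls the median was -0.001, and for Foxa1/2cKO 2 alone it was 0.47, against -0.009 and 0.02 over all genes tested. Foxa1/2cKO 2 held the highest value of the 4 samples for 6 of the 10 genes, and for 40.5% of all genes tested. Foxa1/2cKO 1 was below both controls for 5 of the 10 genes, and for 40.7% of all genes tested. In a bulk sample, fewer cells of a type and less RNA per cell cannot be told apart.

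**Figure D2:**
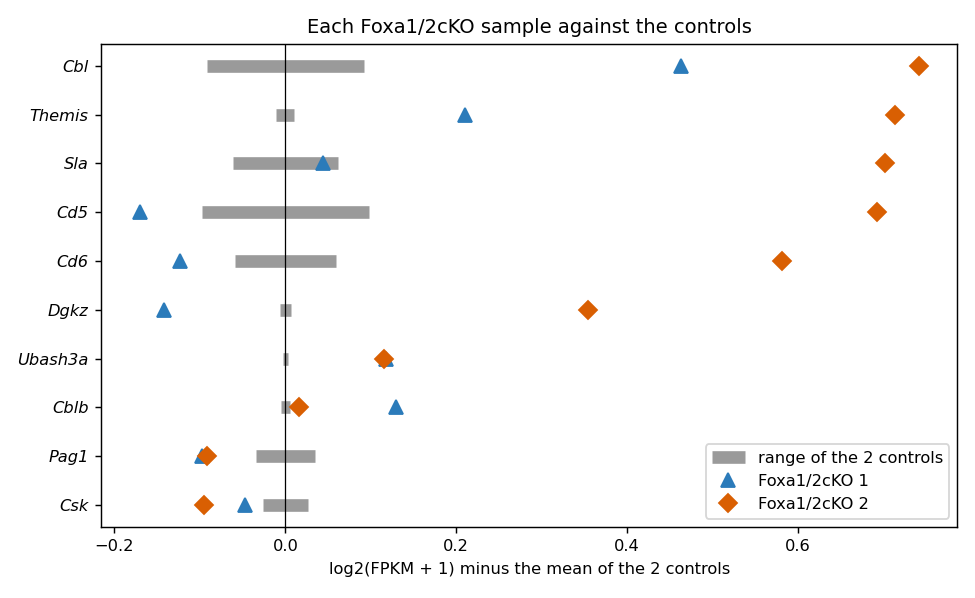
Difference of each Foxa1/2cKO sample from the mean of the 2 controls on the log2(FPKM + 1) scale (horizontal axis) for the 10 attenuators, with the grey bars showing the range of the 2 controls. *Cbl* and *Themis* lay right of the grey bar in both samples (0.46 and 0.74, 0.21 and 0.71), while *Cd5* lay left of it in Foxa1/2cKO 1 (-0.17) and right of it in Foxa1/2cKO 2 (0.69).

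The 250 bases before the start of transcription annotated in RefSeq are shown for *Themis* and *Cbl*, the genes with the largest differences between the genotypes. They are also shown for *Cd5*, the gene with the largest difference between the Foxa1/2cKO samples. *Ubash3a* is shown because, of the 7 genes with an entry, only its window held any of the 3 forkhead sequences searched. Other sequences that forkhead factors may bind were not searched. Where a gene had 2 entries, as *Themis* did, the outermost start was used. The sequences come from RefSeq on GRCm38.p6, the assembly of mm10, where 7 of the 10 genes had an entry, and *Cd6*, *Sla* and *Pag1* had none. They are written 5' to 3' on the strand of the gene: chr10:28668110-28668359 on the plus strand for *Themis*, chr9:44234047-44234296 on the minus strand for *Cbl*, chr19:10738975-10739224 on the minus strand for *Cd5* and chr17:31207816-31208065 on the plus strand for *Ubash3a*. GENCODE, from which the gene positions are taken, puts some starts elsewhere, and 193 bases of the *Ubash3a* window, 28 of the *Cd5* window and 3 of the *Cbl* window lie inside the gene as GENCODE places it. Capitals mark matches, on either strand, to the letters TGTTTAC (forkhead factors), their variants with letters TATTTAC and with letters TGTTTGC, then CCGGAAGT (Ets factors) and the shorter Ets form AGGAAG, and to the letters CAGCTG (E proteins) and GGGCGG (Sp factors).
Themis: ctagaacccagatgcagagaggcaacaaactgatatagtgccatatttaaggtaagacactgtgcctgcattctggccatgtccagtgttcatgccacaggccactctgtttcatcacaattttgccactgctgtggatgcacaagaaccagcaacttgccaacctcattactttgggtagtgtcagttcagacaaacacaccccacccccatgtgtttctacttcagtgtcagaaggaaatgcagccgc
Cbl: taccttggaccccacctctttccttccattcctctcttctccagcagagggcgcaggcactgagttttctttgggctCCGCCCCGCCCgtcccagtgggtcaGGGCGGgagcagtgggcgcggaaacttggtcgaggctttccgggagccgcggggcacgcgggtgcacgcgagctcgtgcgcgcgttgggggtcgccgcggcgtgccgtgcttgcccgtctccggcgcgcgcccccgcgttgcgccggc
Cd5: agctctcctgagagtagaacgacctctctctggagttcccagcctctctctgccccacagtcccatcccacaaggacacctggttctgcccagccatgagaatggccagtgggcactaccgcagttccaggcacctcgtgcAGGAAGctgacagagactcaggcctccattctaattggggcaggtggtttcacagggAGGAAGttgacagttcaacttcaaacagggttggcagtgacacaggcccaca
Ubash3a: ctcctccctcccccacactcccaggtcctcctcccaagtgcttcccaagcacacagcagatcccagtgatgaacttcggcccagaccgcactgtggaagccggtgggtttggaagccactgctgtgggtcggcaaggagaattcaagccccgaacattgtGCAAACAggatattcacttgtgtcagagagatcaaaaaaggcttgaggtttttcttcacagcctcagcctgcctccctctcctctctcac
The *Themis* window held none of these letters and 48.0% G and C. The other RefSeq entry of *Themis* is not described here. The *Cbl* window held 71.6% G and C and 3 matches to GGGCGG, at -173, -168 and -148 from the start, of which the pair farthest upstream share 1 base. The *Cd5* window held 56.8% G and C and 2 matches to AGGAAG, at -109 and -52. The *Ubash3a* window held TGTTTGC on the opposite strand at -90, in the stretch that GENCODE places inside the gene. Among 32851 RefSeq windows of the same length, the median was 52.4% G and C, 32.7% held GGGCGG, 29.5% held AGGAAG, 13.0% held CAGCTG, 2.88% held CCGGAAGT and 9.73% held at least 1 of the 3 forkhead sequences (3.17% TGTTTAC, 2.73% TATTTAC and 4.30% TGTTTGC). A match is a description of letters and not a binding site, and a window without one says nothing about a factor.

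*Themis* encodes a T-lineage protein that binds the adaptor Grb2 and the phosphatase Shp1 and is needed for positive selection. It lies on the plus strand of chromosome 10 (28668360 to 28883818, GRCm38). Its level was 77.8 and 76.6 FPKM in the controls, 89.4 FPKM in Foxa1/2cKO 1 and 127 FPKM in Foxa1/2cKO 2. The controls were nearly equal, each Foxa1/2cKO sample stood above them, and the Foxa1/2cKO samples differed more from each other than the lower of them differed from the controls. The group means were 77.2 ± 0.806 FPKM (SD, n = 2) in control and 108 ± 26.7 FPKM (SD, n = 2) in Foxa1/2cKO, a ratio of 1.40 and a log2 difference of 0.46 (SE 0.18). Against the control mean, Foxa1/2cKO 1 had a ratio of 1.16 and Foxa1/2cKO 2 of 1.65. The values rest on 5848 to 8545 reads per sample, for which counting error alone is 1.08% to 1.31%. The gene *4930519F09Rik* on the opposite strand shares 153 exon bases with *Themis* (1.31% of its exon bases), and reads there cannot be told apart unless strand was used. The study ignored strand in counting exons from the same alignments, and its setting for counting genes was not given in the sources used here.

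The relative *Themis2*, which is known from B cells and macrophages, had a mean of 2.06 ± 0.618 FPKM (SD, n = 2) in control and 2.27 ± 0.806 FPKM (SD, n = 2) in Foxa1/2cKO. *Themis* was thus 37.5 times as high as *Themis2* in the controls. The genes whose values over the 4 samples lay closest to the pattern of *Themis* were *Slamf1*, a SLAM family receptor, *Ephx1*, an epoxide hydrolase, and *Cd8b1*, the beta chain of the CD8 coreceptor. Closeness was measured as the Euclidean distance between log2(FPKM + 1) values centred on the gene mean, over 4 samples and 10775 genes, and was 0.0175 for *Slamf1*, 0.0598 for *Ephx1* and 0.0715 for *Cd8b1*. *Slamf1* was at 27.0 and 26.4 FPKM in the controls, 30.8 FPKM in Foxa1/2cKO 1 and 44.8 FPKM in Foxa1/2cKO 2. *Cd8b1* was at 592 and 613.5 FPKM in the controls, 668 FPKM in Foxa1/2cKO 1 and 974 FPKM in Foxa1/2cKO 2. These genes share with *Themis* a small step up in Foxa1/2cKO 1 and a larger one in Foxa1/2cKO 2.

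*Cbl* encodes a ubiquitin ligase that marks Zap70 and the zeta chain of the TCR for removal and keeps the surface TCR of DP thymocytes low. It lies on chromosome 9, minus strand (44142976 to 44234049). Levels were 58.0 and 51.0 FPKM in the controls, 75.4 FPKM in Foxa1/2cKO 1 and 91.6 FPKM in Foxa1/2cKO 2. There was no overlap, and among the 10 genes *Cbl* stood farthest above the control mean in Foxa1/2cKO 1. The means were 54.5 ± 4.97 FPKM (SD, n = 2) in control and 83.5 ± 11.5 FPKM (SD, n = 2) in Foxa1/2cKO, a ratio of 1.53 and a log2 difference of 0.60 (SE 0.13). The ratio to the control mean was 1.38 in Foxa1/2cKO 1 and 1.68 in Foxa1/2cKO 2. Between 3520 and 5164 reads per sample lie behind these values. Of the 50-base stretches of its longest coding transcript, 2.38% also occur in other genes, 491 in number.

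*Cblb*, the paralog of *Cbl* known for restraining peripheral T cells that lack costimulation, was nearly level across the samples. It was at 13.5 and 13.6 FPKM in the controls, 14.9 FPKM in Foxa1/2cKO 1 and 13.7 FPKM in Foxa1/2cKO 2. Both Foxa1/2cKO values were above the controls, but Foxa1/2cKO 2 exceeded the control mean by a ratio of only 1.01. The log2 difference was 0.07 (SE 0.095), on 481 to 639 reads with a counting error of 3.96% to 4.56%. In the controls *Cbl* was 4.02 times as high as *Cblb*. The third paralog, *Cblc*, had 1 and 3 reads in the controls and was listed at 0 in both Foxa1/2cKO samples.

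A wider list of 40 genes was drawn up as attenuators, and 38 of them were tested. Of these, the ubiquitin ligases *Itch* and *Nedd4* had an unadjusted p under 0.05 in limma, as did 4.55% of all genes tested. They differed in opposite directions. *Itch*, which limits T-cell activation with the help of Ndfip proteins, was at 22.0 and 23.8 FPKM in the controls and 27.9 and 28.7 FPKM in Foxa1/2cKO. *Nedd4*, which ubiquitinates Cbl-b in T cells, was at 62.8 and 64.0 FPKM in the controls and 54.5 and 54.3 FPKM in Foxa1/2cKO. Because Cbl-b itself restrains T cells, *Nedd4* need not act as an attenuator. The opposite directions are therefore not read as a split among attenuators. The 2 Foxa1/2cKO samples were close to each other for *Itch* and *Nedd4*, in contrast to *Themis*. The log2 difference was 0.30 (SE 0.09, unadjusted p = 0.0235) for *Itch* and -0.22 (SE 0.08, unadjusted p = 0.0425) for *Nedd4*. Neither passed the correction, with limma's Benjamini-Hochberg adjusted p at 0.863 for each.

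The genes closest to *Cbl* by the same measure were expressed at lower levels: *Plxdc2* at a distance of 0.0687, *Man2c1os* at 0.0814 and *Insl6* at 0.0845. *Plxdc2*, a transmembrane protein gene, was at 7.64 and 6.91 FPKM in the controls and 9.87 and 12.5 FPKM in Foxa1/2cKO. The other two were below 6 FPKM in every sample.

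*Cd5* encodes a surface receptor with scavenger receptor cysteine-rich domains that lowers TCR signalling, and its surface level is known to follow the strength of the selecting signal. It lies on the minus strand of chromosome 19 (10717116 to 10739002). *Cd5* was at 484 and 423 FPKM in the controls, 402 FPKM in Foxa1/2cKO 1 and 732 FPKM in Foxa1/2cKO 2. Foxa1/2cKO 1 was the lowest and Foxa1/2cKO 2 the highest of the 4 samples, so the genotypes overlapped. The means were 453 ± 43.4 FPKM (SD, n = 2) in control and 567 ± 233 FPKM (SD, n = 2) in Foxa1/2cKO, with a log2 difference of 0.26 (SE 0.30). Foxa1/2cKO 2 exceeded Foxa1/2cKO 1 by a ratio of 1.82, and 0.78% of all genes tested had a difference between these samples as high. With 8975 to 16792 reads per sample, counting error is at most 1.06%.

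*Cd6*, which encodes a related receptor that binds Alcam on other cells, lies on the same chromosome and strand (10789341 to 10830058). The genes are separated by 50338 bases, with 1 annotated gene and 0 protein-coding genes between them. *Cd6* was at 273 and 251 FPKM in the controls, 240.1 FPKM in Foxa1/2cKO 1 and 391.5 FPKM in Foxa1/2cKO 2. Its samples fell in the same order as those of *Cd5*: Foxa1/2cKO 1 lowest, Foxa1/2cKO 2 highest and the controls between. The genotypes differed by a log2 value of 0.23 (SE 0.25), and the ratio of the Foxa1/2cKO samples was 1.63. Among the 45 pairs within the set, *Cd5* and *Cd6* were the third closest (distance 0.129), after *Cblb* with *Ubash3a* (0.0899) and *Csk* with *Pag1* (0.0970). The relative *Cd163*, a macrophage receptor, was listed at no more than 0.0619 FPKM.

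The genes closest to *Cd5* were *Tox*, a nuclear factor induced by TCR signals that is needed for CD4 lineage development, at a distance of 0.0431, *Nmnat1*, an enzyme of nuclear NAD synthesis, at 0.0674 and *Tob2*, an antiproliferative gene, at 0.0674. *Tox* was at 122.5 and 109.6 FPKM in the controls, 102 FPKM in Foxa1/2cKO 1 and 182.5 FPKM in Foxa1/2cKO 2. *Tob2* was at 33.8 and 28.8 FPKM in the controls, 28.0 FPKM in Foxa1/2cKO 1 and 48.7 FPKM in Foxa1/2cKO 2. As with *Cd5*, Foxa1/2cKO 1 gave the lowest value for each of them and Foxa1/2cKO 2 the highest.

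*Sla* encodes the Src-like adaptor SLAP, which works with Cbl to bring down the TCR zeta chain in DP thymocytes. The gene is on the minus strand of chromosome 15 (66780819 to 66831829), inside *Tg*, which is on the opposite strand and shares 0 exon bases with it. *Sla* was at 214 and 197 FPKM in the controls, 212 FPKM in Foxa1/2cKO 1 and 335 FPKM in Foxa1/2cKO 2. Foxa1/2cKO 1 lay within the controls, and Foxa1/2cKO 2 was 1.63 times the control mean. The log2 difference was 0.37 (SE 0.23), from 0.04 for Foxa1/2cKO 1 and 0.70 for Foxa1/2cKO 2. Its relative *Sla2* was at 43.5 ± 0.330 FPKM (SD, n = 2) in control, so *Sla* was 4.73 times as high. *Sla2* was at 39.3 FPKM in Foxa1/2cKO 1 and 57.9 FPKM in Foxa1/2cKO 2, below and above both controls.

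*Csk* and *Pag1* work together on Lck. Csk phosphorylates the inhibitory tyrosine of Lck, and the membrane adaptor encoded by *Pag1* anchors Csk near it. Both differed little among the samples. *Csk* (chromosome 9, 57626646 to 57653631, minus strand) was at 189 and 182.5 FPKM in the controls and 179.9 and 174 FPKM in Foxa1/2cKO. *Pag1* (chromosome 3, 9687479 to 9833679, minus strand) was at 35.7 and 37.5 FPKM in the controls and 34.1 and 34.2 FPKM in Foxa1/2cKO. For each gene the Foxa1/2cKO samples lay just below the controls, with a log2 difference of -0.07 (SE 0.08) for *Csk* and of -0.095 (SE 0.08) for *Pag1*. Their fitted differences had 95% intervals of -0.29 to 0.15 and -0.31 to 0.12. Foxa1/2cKO 2, which stood apart for the surface receptors, was at 0.967 times Foxa1/2cKO 1 for *Csk* and at 1.004 times for *Pag1*. The Csk relative *Matk* averaged 8.80 ± 1.12 FPKM (SD, n = 2) in control, and *Lime1*, another adaptor that binds Csk, at 63.9 ± 0.880 FPKM (SD, n = 2), above *Pag1*.

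*Ubash3a* encodes a member of the Sts family, proteins with SH3 and ubiquitin-binding domains that restrain TCR signals in T cells. The gene is on the plus strand of chromosome 17 (31207873 to 31246892). Its level was 53.0 and 52.8 FPKM in the controls and 57.5 and 57.3 FPKM in Foxa1/2cKO. The samples of each group were nearly equal, and the groups did not overlap. The means were 52.9 ± 0.164 FPKM (SD, n = 2) and 57.4 ± 0.0964 FPKM (SD, n = 2), a ratio of 1.09 and a log2 difference of 0.12 (SE 0.08). With 1832 to 2342 reads per sample, counting error alone was 2.07% to 2.34%, so the spread within each group was below counting error. The paralog *Ubash3b*, which is expressed more widely, averaged 5.24 ± 0.372 FPKM (SD, n = 2) in control, and *Ubash3a* was 10.1 times as high.

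*Dgkz* encodes diacylglycerol kinase zeta, which converts diacylglycerol to phosphatidic acid and so limits activation of Ras and protein kinase C. It lies on the minus strand of chromosome 2 (91932824 to 91975864). *Dgkz* was at 305 and 302 FPKM in the controls, 275 FPKM in Foxa1/2cKO 1 and 388 FPKM in Foxa1/2cKO 2. The controls were nearly equal, and the Foxa1/2cKO samples lay on either side of them. The log2 difference was 0.11 (SE 0.18), from -0.14 for Foxa1/2cKO 1 and 0.35 for Foxa1/2cKO 2. *Gm9821*, on the opposite strand, shares 222 exon bases (3.54%) with *Dgkz*, to which the same limit applies.

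Of its family, *Dgka*, the other isoform known to restrain TCR signals, was as abundant as *Dgkz* in the controls, at 303 ± 0.815 FPKM (SD, n = 2) against 303 ± 1.94 FPKM (SD, n = 2), a difference within the spread. *Dgka* was at 268 FPKM in Foxa1/2cKO 1 and 366 FPKM in Foxa1/2cKO 2, and it lay, like *Dgkz*, below and above the controls. *Dgkd* followed at 134 ± 7.70 FPKM (SD, n = 2) in control, *Dgke* at 29.4 ± 1.71 FPKM and *Dgkq* at 10.6 ± 0.358 FPKM. *Dgkg* was at 4.04 ± 0.0545 FPKM and *Dgkh* at 1.58 ± 0.209 FPKM in control. *Dgkb* was listed at 0 in all samples and *Dgki* in all but Foxa1/2cKO 2, where it was at 0.0196 FPKM.

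Over all families, 11 of the 15 relatives passed the filter on low values, and 0 had an adjusted p or an unadjusted p under 0.05 from limma. Of those 11, 2 had both Foxa1/2cKO samples above both controls (18.9% of all genes tested) and 3 had both below (17.8%). In every family but that of *Pag1* and *Lime1*, no relative outside the set had a higher control mean than the member.

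**Figure D3:**
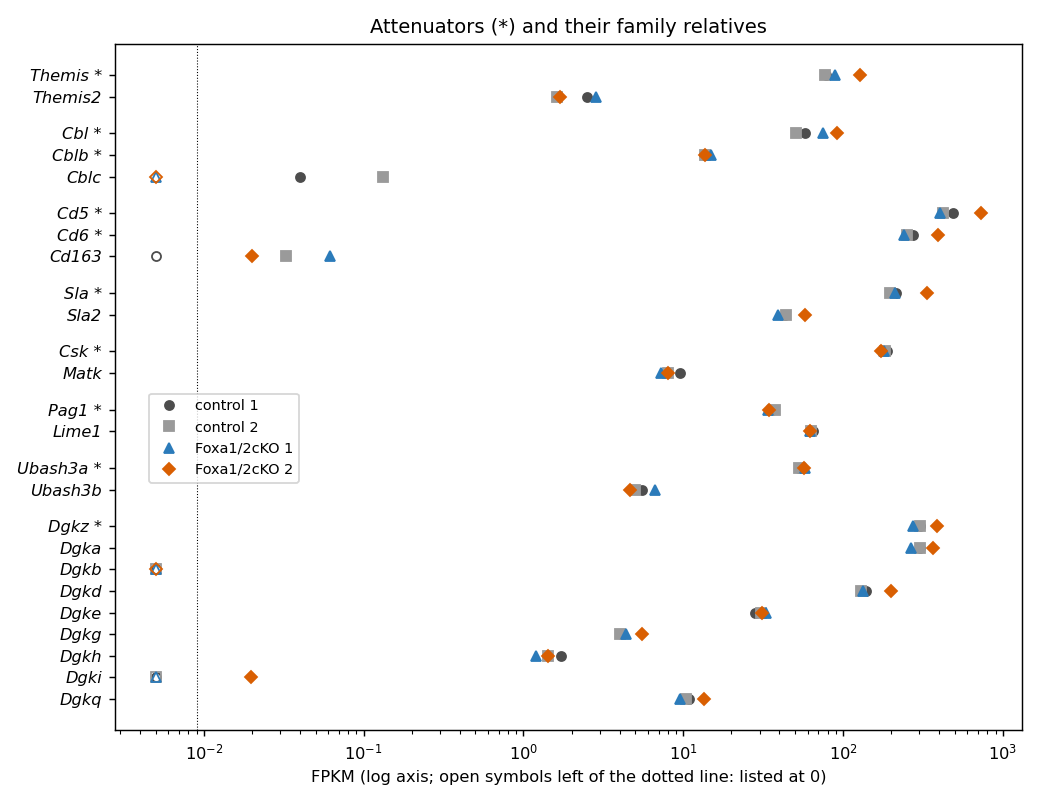
Level in FPKM (horizontal log axis) of the 10 attenuators, marked with an asterisk, and their 15 family relatives in the 4 samples, with open symbols left of the dotted line for values listed at 0. *Themis*, *Cbl*, *Cd5*, *Sla*, *Csk* and *Ubash3a* stand right of their relatives, *Lime1* stands right of *Pag1*, and *Dgka* lies on *Dgkz*.

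The other genes of the pathway were read from the same fit. In the wider list drawn up as attenuators, 38 of 40 genes were tested. After adjustment 0 were below 0.05 in limma, with 1 higher and 1 lower at an unadjusted p under 0.05. Of all genes tested, 2.39% were higher and 2.15% lower at that unadjusted p, so nothing is read from the count. Their median log2 difference was 0.05, from -0.01 for Foxa1/2cKO 1 and 0.16 for Foxa1/2cKO 2. Foxa1/2cKO 2 held the highest value for 24 of these 38 genes. Of the 40 proximal activators, which are the CD3 chains, coreceptors, kinases and adaptors that pass the signal on, 39 were tested and 0 had an adjusted or unadjusted p under 0.05. Their median was 0.11, from -0.06 for Foxa1/2cKO 1 and 0.23 for Foxa1/2cKO 2, and Foxa1/2cKO 2 held the highest value for 32 of 39. The pattern of a high Foxa1/2cKO 2 was therefore shared by activators and attenuators, and it was found in 40.5% of all genes tested.

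*Lck*, the kinase on which Csk acts and the most abundant activator, was at 749 and 741 FPKM in the controls, 675 FPKM in Foxa1/2cKO 1 and 844 FPKM in Foxa1/2cKO 2. Its log2 difference was 0.02 (SE 0.14, limma's adjusted p = 0.986 by Benjamini-Hochberg). The Foxa1/2cKO samples of *Lck* lay on either side of the controls, as those of *Dgkz* did. *Cd8b1*, the activator with the next highest mean over the 4 samples though not over the controls alone, had a log2 difference of 0.42 (SE 0.20, adjusted p = 0.863 from limma).

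Of the genes known to rise after TCR signalling, 25 were listed and all 25 were tested, and 0 had an adjusted or unadjusted p under 0.05 from limma. Their median log2 difference was 0.004, from -0.11 for Foxa1/2cKO 1 and -0.07 for Foxa1/2cKO 2. In 7 of the 25 both Foxa1/2cKO samples were below both controls (17.8% of all genes tested), and in 0 both were above (18.9%). *Itm2a*, a membrane protein gene induced during positive selection, was at 471 and 518 FPKM in the controls, 453 FPKM in Foxa1/2cKO 1 and 319 FPKM in Foxa1/2cKO 2, with a log2 difference of -0.38 (SE 0.19, adjusted p = 0.863 from limma). *Nr4a1*, the immediate early gene for the nuclear receptor Nur77, was at 206 and 183 FPKM in the controls, 183 FPKM in Foxa1/2cKO 1 and 217 FPKM in Foxa1/2cKO 2. Foxa1/2cKO 2 held the highest value for 11 and the lowest for 11 of the 25. Over all 10776 genes tested it held the highest for 4360 and the lowest for 3592. Of the 25, those highest in Foxa1/2cKO 2 included *Tox*, described above, and *Nab2*, *Id3*, *Egr1* and *Egr2*. Those lowest there included *Myc*, *Itm2a*, *Tnfrsf9*, *Irf4* and *Cd83*. *Nab2*, a corepressor of Egr factors, was at 110 and 86.8 FPKM in the controls, 86.1 FPKM in Foxa1/2cKO 1 and 182 FPKM in Foxa1/2cKO 2. *Egr1*, an immediate early factor, was at 167 and 137 FPKM in the controls, 117 FPKM in Foxa1/2cKO 1 and 196 FPKM in Foxa1/2cKO 2. *Nab2* and *Egr1*, like *Cd5*, were lowest in Foxa1/2cKO 1 and highest in Foxa1/2cKO 2, though *Nab2* in Foxa1/2cKO 1 was close to the lower control. *Myc*, a growth regulator, was at 53.5 and 54.0 FPKM in the controls, 52.4 FPKM in Foxa1/2cKO 1 and 20.7 FPKM in Foxa1/2cKO 2.

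**Figure D4:**
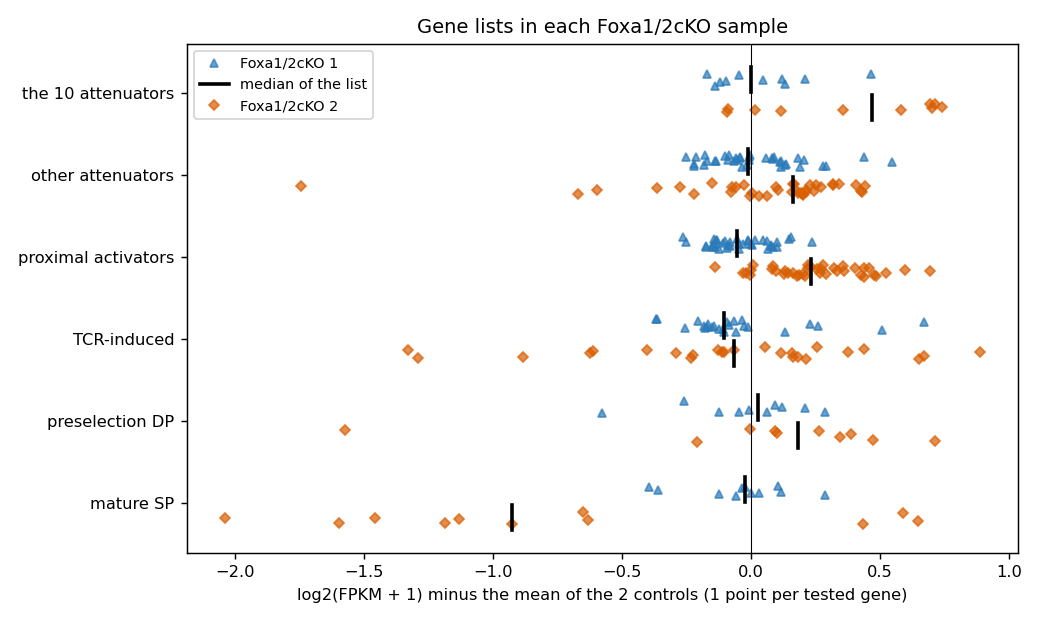
Difference of Foxa1/2cKO 1 (triangles) and Foxa1/2cKO 2 (diamonds) from the control mean on the log2(FPKM + 1) scale (horizontal axis) for each tested gene of 6 lists, with black bars for the list medians. The 10 attenuators had medians of -0.001 and 0.47, and the mature SP genes of -0.03 and -0.93.

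Genes of cells before and after selection moved with Foxa1/2cKO 2 and are given beside the members for that reason. Of 11 genes of mature single-positive (SP) thymocytes, 8 were lowest in Foxa1/2cKO 2, including *Zbtb7b*, the CD4 lineage factor (43.1 and 53.4 FPKM in the controls, 47.1 FPKM in Foxa1/2cKO 1, 10.9 FPKM in Foxa1/2cKO 2), and *Il7r*, the IL-7 receptor (33.7, 44.1, 41.5 and 13.4 FPKM in the same order). *Ccr4* and *Ccr9*, chemokine receptors, were highest there, and the summed level of the list was 763 to 784 FPKM in the controls, 691.5 FPKM in Foxa1/2cKO 1 and 820.3 FPKM in Foxa1/2cKO 2. Of 10 genes of preselection DP cells, *Themis* among them, 7 were highest in Foxa1/2cKO 2, and the summed level was 1247 to 1298 FPKM in the controls, 1359 in Foxa1/2cKO 1 and 1443 FPKM in Foxa1/2cKO 2. *Ptcra*, the pre-TCR alpha chain, was lower in Foxa1/2cKO, at 11.3 and 11.9 FPKM in the controls and 7.44 and 3.23 FPKM in Foxa1/2cKO, and was the only gene of that list at an unadjusted p under 0.05 from limma. Over all 10776 genes tested, Foxa1/2cKO 2 held the lowest value for 3592 and the highest for 4360. In both lists 0 genes passed after adjustment. The part of these genes in the values of *Themis*, *Cd5*, *Cd6*, *Sla* and *Dgkz* in Foxa1/2cKO 2 was not tested.

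Markers of other cells were low beside the attenuators. The summed level of 5 B-cell genes was 50.3 to 75.7 FPKM in the controls, 103.5 FPKM in Foxa1/2cKO 1 and 54.0 FPKM in Foxa1/2cKO 2, and that of 6 myeloid genes 21.9 to 37.3, 32.4 and 14.3 FPKM. The 5 thymic epithelial genes summed to 3.18 to 3.26, 4.18 and 3.69 FPKM, and the 3 listed genes of NK or gamma-delta T cells to 20.95 to 21.9, 25.2 and 13.2 FPKM. Of 6 erythroid genes, the 4 globin genes were listed at 0 in all samples, and the sum was 0.608 to 1.12, 2.67 and 1.01 FPKM. The B-cell sum was highest in Foxa1/2cKO 1, the sample with the lowest *Cd5* and *Cd6*. The part of these cells in the members' values was not tested.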

How the data were processed

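RNA from FACS-sorted CD69+DP thymocytes was sequenced in 2 control and 2 Foxa1/2cKO samples. Alignment by the authors was to mm10 and the RefSeq annotation, reads were counted with HTSeq, and they used DESeq2 for their own comparison, whose results were not used here. The values deposited by the authors are FPKM for 24421 genes, and the tool that made them is not given in the sources used here. The submitters' processing notes also list TopHat and Picard. The steps between the FPKM of a gene gave back whole reads for 100% of the 16069 genes above 0, at a tolerance that was at its strictest 3e-09 of the highest read number of the gene. The lengths that follow were whole, within 0.02 bases, for 91.6% of 3000 genes checked. The smallest whole read numbers had to be multiplied to give a whole length for 3.67% of genes with more than 50 reads. The numbers by which the FPKM had been divided ran from 10796528 to 14968316. In Foxa1/2cKO 2 this number (11093927) was below the reads recovered (11262366), so it was not the read total of that sample. Because 27 symbols had been turned into dates, those genes were left as listed.

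The 10 genes and all lists were chosen with earlier results of these data known. Foxa1/2cKO was compared with control by limma 3.58.1 in R 4.3.3, on log2(FPKM + 1) with a mean-variance trend, for the 10776 genes that reached 1 FPKM in 2 or more samples, with Benjamini-Hochberg adjustment at 0.05. The tests were two-sided. All 10 genes passed the filter. Fold changes on this scale understate the change of low genes. The fit had 2 residual and 2.69 prior degrees of freedom, and with 2 samples against 2 the smallest two-sided p of an exact permutation test is 0.333. The fitting steps were tested on simulated data with known changes.

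Named genes were the 10 members, their family relatives, up to 4 genes of each pathway list with the smallest unadjusted p under 0.05 or otherwise the 2 most abundant, and the 3 genes closest to *Themis*, *Cbl* and *Cd5*. Marker genes were named for their levels. *Ptcra*, *Nab2*, *Id3*, *Egr1*, *Egr2*, *Myc*, *Tnfrsf9*, *Irf4*, *Cd83* and the partners named among the other observations were named outside this rule after their values were seen. A single gene is not reported here. Gene positions and shared exon bases were taken from GENCODE M21 (GRCm38), and promoter sequences from RefSeq. Alternatives were a pseudocount of 0.1, no filter, upper-quartile scaling, a length correction by loess with a span of 0.5, a replicate block, and leaving out each sample. Intervals and limits cover counting error only where they are said to. Other steps were run in Python 3.11.15 using numpy 2.4.6, pandas 2.3.3 and matplotlib 3.10.9.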

Additional observations from a re-analysis of the deposited data

How the results depend on the processing

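The number of genes with an adjusted p under 0.05 from limma was 1, and it was 0 with a pseudocount of 0.1, 0 without the filter on low values and 0 with upper-quartile scaling. Leaving out each sample gave 0 to 2559 genes: 0 without either control, 19 without Foxa1/2cKO 2 and 2559 without Foxa1/2cKO 1, where the lone sample is assumed to vary like the controls. In the other pathway lists the count was 0, and 0 to 53 with a sample left out, the 53 being without Foxa1/2cKO 1. The median log2 difference of the 10 attenuators, 0.17, was 0.15 to 0.19 over the other settings and -0.001 to 0.47 with a sample left out. The number of attenuators whose groups did not overlap was 6 (36.7% of all genes tested), was 5 with upper-quartile scaling (37.5%) and 6 to 10 with a sample left out. It was 10 without Foxa1/2cKO 1 and 9 without Foxa1/2cKO 2, where 85.9% and 77.1% of all genes tested did not overlap. At an unadjusted p under 0.05 from limma there was 1 attenuator (490 of all genes tested). There were 2 with upper-quartile scaling (531 of all genes) and 2 with the replicate block (378 of all genes). The mean was higher in Foxa1/2cKO for 8 attenuators in every setting except without Foxa1/2cKO 2, where it was 5. Over all 10776 genes tested, the main setting gave 5523 higher and 5253 lower. Nothing is read from the count of attenuators, which were chosen with these differences in view. Of all genes, 490 had an unadjusted p under 0.05, 802 without the filter and 73 to 4223 with a sample left out.

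*Cd5* ranged from -0.17 to 0.69, *Cd6* from -0.12 to 0.58 and *Dgkz* from -0.14 to 0.35 with a sample left out, the negative values being without Foxa1/2cKO 2. *Cbl* ranged from 0.46 to 0.74, *Themis* from 0.21 to 0.71, *Sla* from 0.04 to 0.70, *Cblb* from 0.02 to 0.13, *Ubash3a* from 0.11 to 0.12, *Csk* from -0.10 to -0.05 and *Pag1* from -0.13 to -0.06. Of 100 such values over 10 alternatives, 91 moved by less than the SD of the same gene between replicates and 9 by more. For genes whose Foxa1/2cKO samples lay far apart, such as *Cd5*, that SD was large.

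Samples with the same replicate number did not deviate together (correlation of -0.0587 across genes between 2 pairs). With only 2 pairs, this cannot tell whether the numbers mark a shared sort or batch, and the labels do not say. With the replicate block 1 gene had an adjusted p under 0.05 and the median of the attenuators was 0.17. With the block and the length correction these were 1 and 0.19. The depth limits *Cblc*, *Cd163*, *Dgkb* and *Dgki*, which had too few reads to compare.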

Other observations

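Proteins that the attenuators are known to bind or act on were also read from the fit, in a list of 31 genes of which 30 were tested. With limma, 0 had an adjusted or unadjusted p under 0.05, and the median log2 difference was 0.02, from -0.08 for Foxa1/2cKO 1 and 0.13 for Foxa1/2cKO 2. The groups did not overlap for 2 higher and 2 lower genes, against 18.9% and 17.8% of all genes tested. Foxa1/2cKO 2 held the highest value for 20 and the lowest for 4 of the 30. It held the highest for 40.5% of all genes tested and the lowest for 3592 of 10776. *Zap70*, a kinase that Cbl ubiquitinates, was at 134 and 128 FPKM in the controls, 122 FPKM in Foxa1/2cKO 1 and 174 FPKM in Foxa1/2cKO 2. *Cd247*, the TCR zeta chain on which Cbl and SLAP act, was at 125 and 126 FPKM in the controls, 114 FPKM in Foxa1/2cKO 1 and 151 FPKM in Foxa1/2cKO 2. *Ptpn6*, the phosphatase Shp1 that Themis binds, was at 181 and 162 FPKM in the controls, 165 FPKM in Foxa1/2cKO 1 and 214 FPKM in Foxa1/2cKO 2. *Grb2*, the adaptor that Themis binds, was at 75.8 and 72.9 FPKM in the controls, 73.7 FPKM in Foxa1/2cKO 1 and 81.3 FPKM in Foxa1/2cKO 2. *Ezr*, the membrane linker ezrin, was at 281 and 275 FPKM in the controls, 252 FPKM in Foxa1/2cKO 1 and 301 FPKM in Foxa1/2cKO 2, a log2 difference of -0.01 (SE 0.12, limma's adjusted p = 0.988 by Benjamini-Hochberg). For these 5 partners, which except *Ezr* were named after their values were seen, the groups overlapped.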
